A study of Arabidopsis thaliana with 4 samples.

Results

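Short and long unmodified A tails were compared within each library of a TAIL-seq study of Arabidopsis thaliana, tails of 4 to 9 A forming the short side and tails of 20 to 30 A the long side. A tail was unmodified where the deposited table listed 0 nucleotides after the A tract. A locus entered where it had at least 20 such reads on the 2 sides together in a library, and 117 of the 8346 loci in the table did so in at least 1 library. The row counts on the 2 sides chose the loci and the A length defined the sides, so the shares below are descriptions with no test. There were 105 such loci in urt1, 8 in xrn4, 56 in urt1 xrn4 and 17 in WT. TAIL-seq sequences RNA from its 3′ end, so that each read covers the tail and whatever was added to it. The 4 libraries came from total RNA of seedlings aged 2 weeks, grown on soil with 16 h of light and 8 h of darkness a day: the insertion mutant urt1-1 (urt1), the insertion mutant xrn4-3 (xrn4), the double mutant urt1-1 xrn4-3 (urt1 xrn4), and wild type (WT, ecotype Col0). URT1 is the main enzyme that uridylates mRNA tails in this plant, and XRN4 is the cytoplasmic 5′-to-3′ exoribonuclease that degrades decapped mRNA. Each genotype had 1 library, so no difference between genotypes has a replicate check, and the intervals below cover counting error only. Whole seedlings were extracted, so fewer cells of a type and less RNA per cell cannot be told apart.

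A poly(A) tail is added to an mRNA in the nucleus, is bound by poly(A)-binding protein in the cytoplasm and is shortened there by deadenylases. Tails that have become too short to hold that protein are open to decapping and decay from the 5′ end, and in plants they are the ones that URT1 preferentially extends with U. In green tissue, mRNAs of the photosynthetic and translation machinery are among the most abundant. The table ends at 30 A, so the long side is the longest class measured here and not the full-length tail of an mRNA.

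The short side held 6161 reads in urt1, 934 in xrn4, 4101 in urt1 xrn4 and 832 in WT. The long side held 8163, 1237, 4614 and 2095 reads in the same order. The short share, the short reads as a percentage of short and long reads together, was 43.0% in urt1 (exact 95% interval 42.2 to 43.8), 43.0% in xrn4 (40.9 to 45.1), 47.1% in urt1 xrn4 (46.0 to 48.1) and 28.4% in WT (26.8 to 30.1). WT was the lowest of the 4 libraries, urt1 and xrn4 were equal, and urt1 xrn4 was the highest. This order holds for unmodified tails, which leave out short tails that carry U. With tails of any extension the short share was 48.98% in urt1, 63.3% in xrn4, 56.2% in urt1 xrn4 and 42.9% in WT, so xrn4 was then highest. The reads came from 2 sequencer lanes that held all 4 libraries, and the lanes gave 43.0% and 43.0% in urt1, 42.0% and 43.9% in xrn4, 47.2% and 47.0% in urt1 xrn4, and 27.8% and 29.0% in WT. Repeated ends were frequent on both sides: distinct pairs of locus and A length were 40.4% of short and 55.2% of long reads in urt1, 62.1% and 73.3% in xrn4, 37.6% and 62.5% in urt1 xrn4, and 66.0% and 68.3% in WT. Reads carry no molecular identifiers, so copies of 1 molecule and separate molecules of equal length cannot be told apart. A locus can have at most 6 lengths on the short side and 11 on the long side, which lowers the distinct share of the short side and the short share over distinct pairs by construction. With each such pair counted once, the short share was 35.6% in urt1, 39.0% in xrn4, 34.8% in urt1 xrn4 and 27.7% in WT.

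**Figure D1:**
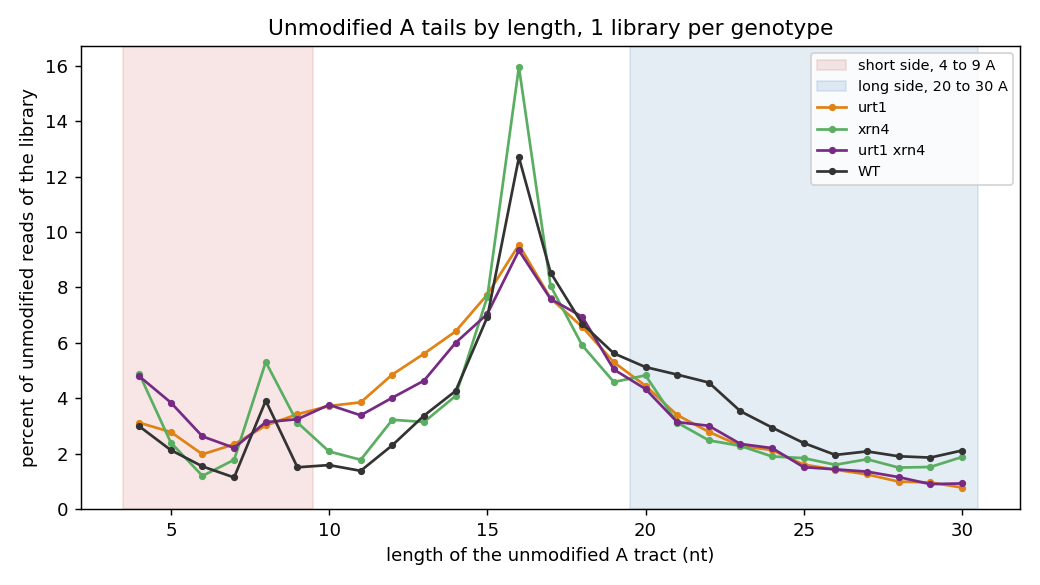
Percent of the unmodified reads of each library (vertical axis) at each length of the A tract in nucleotides (horizontal axis), 1 line per library, with the short and long sides shaded. All 4 lines peak at 16 A, between the sides; WT lies above the mutant libraries at 21 to 30 A, and xrn4 and WT have a separate peak at 8 A.

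The edges of the sides did not fall at gaps in the lengths. There were 1266 reads of 9 A and 1376 of 10 A in urt1, 156 and 104 in xrn4, 670 and 777 in urt1 xrn4, and 95 and 100 in WT. At the other edge there were 1645 reads of 20 A and 1958 of 19 A in urt1, 241 and 229 in xrn4, 895 and 1040 in urt1 xrn4, and 322 and 353 in WT. The minimum of 20 reads likewise cut through a continuous range, with 11 loci at 20 reads and 6 at 19 in urt1, 2 and 0 in xrn4, 3 and 2 in urt1 xrn4, and 1 and 2 in WT.

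Most loci were seen on only 1 side, but a locus with 1 read can lie on only 1. Such loci were 30.55% of those with a short or long read in urt1, 64.9% in xrn4, 32.5% in urt1 xrn4 and 53.7% in WT. In urt1, 1805 loci had a short read, 1844 a long read and 631 both. In xrn4 these counts were 491, 507 and 101, in urt1 xrn4 1163, 1198 and 347, and in WT 478, 710 and 122. The long side was drawn more from often-read loci than the short side: the loci with at least 20 reads supplied 25.1% of short and 42.1% of long reads in urt1, 19.7% and 31.1% in urt1 xrn4, and 11.9% and 19.2% in WT, but 12.4% and 11.6% in xrn4. The pooled short share was lower at the most-read loci in urt1, with 44.4% at 1 read (922 loci), 54.7% at 2 to 4 reads (53.1 to 56.3; 1418 loci), 38.6% at 10 to 19 reads (36.5 to 40.8; 151 loci) and 29.0% at 50 or more (27.3 to 30.6; 32 loci). In urt1 xrn4 it was 46.3% at 1 read, 50.5% at 2 to 4, 56.7% at 5 to 9, 44.5% at 10 to 19, 33.99% at 20 to 49 and 38.1% at 50 or more. In WT loci with 1 read had 48.1% (43.9 to 52.3; 572 loci), loci with 2 to 4 reads 25.2%, loci with 5 to 9 reads 30.2%, loci with 10 to 19 reads 16.3% and loci with 20 to 49 reads 18.5% (15.0 to 22.4; 16 loci). In xrn4 it was 53.8% at 1 read, 36.7% at 2 to 4 reads and 45.5% at 20 to 49 reads (38.5 to 52.7; 7 loci). The short share thus differed between classes of read number, in no steady order, and the part of read number in the leans of single loci was not tested.

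**Figure D2:**
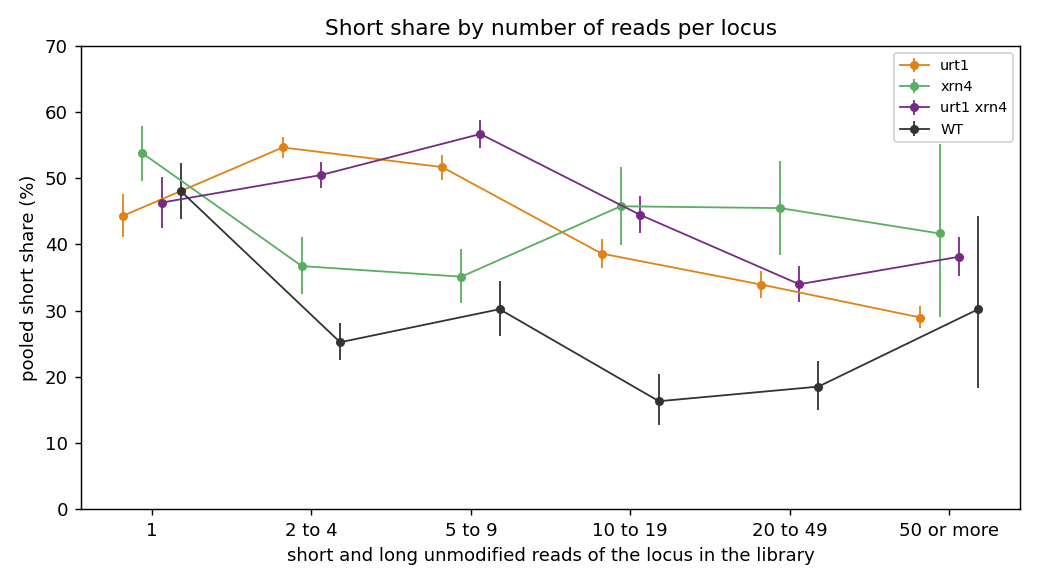
Pooled short share in percent (vertical axis) of loci grouped by their number of short and long unmodified reads (horizontal axis), 1 line per library, with exact 95% intervals as bars. The lines for urt1 and WT are lower at 10 reads and above than at 1 read; in xrn4 the classes of 2 to 9 reads are lowest.

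A locus was called short-leaning or long-leaning where its odds of short to long reads were at least 2 times above or below those of the other reads of the library and the exact interval of its short share excluded the library's share. In urt1, 12 of 105 loci were short-leaning (11.4%) and 41 long-leaning (39%). In xrn4 these were 2 and 1 of 8 loci (25% and 12.5%), in urt1 xrn4 5 and 23 of 56 (8.93% and 41.1%), and in WT 2 and 7 of 17 (11.8% and 41.2%). The baseline includes the many loci with few reads. Set against the median locus tested instead, the counts were 27 short-leaning and 19 long-leaning in urt1, 2 and 1 in xrn4, 12 and 17 in urt1 xrn4, and 4 and 0 in WT. The spread of loci was wide on either baseline, with short shares of 0 to 95% in urt1, 15 to 82.6% in xrn4, 0 to 100% in urt1 xrn4 and 0 to 63.6% in WT.

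**Figure D3:**
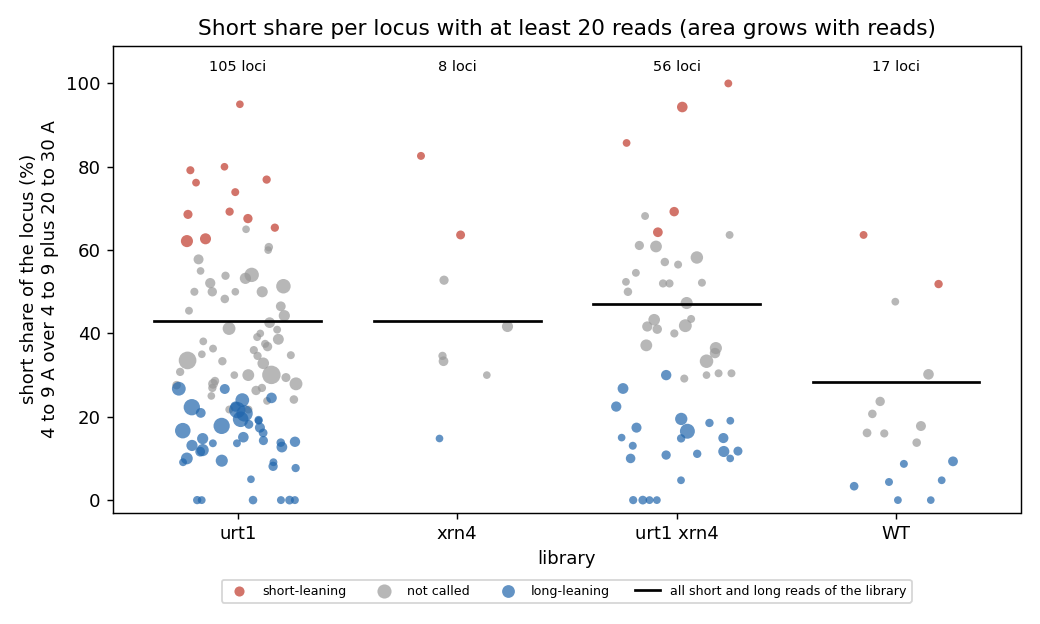
Short share of each locus with at least 20 short and long reads (vertical axis, percent) in each library (horizontal axis), 1 point per locus with its area growing with reads, coloured by its call; black lines give the share of the whole library. In urt1, urt1 xrn4 and WT most loci lie under the line.

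Among the short-leaning loci of urt1 were genes of several kinds. ASN2 (AT5G65010), an asparagine synthetase, had the highest share, with 19 of 20 reads short (95%; log2 odds ratio 4.66). Its short reads were 2 of 6 A, 9 of 7 A, 3 of 8 A and 5 of 9 A, against 1 long read of 20 A. SUR1 (AT2G20610), the C-S lyase of glucosinolate synthesis, had 16 of 20, and AT1G13360, an uncharacterized protein, had 19 of 24. PIP2A (AT3G53420), a plasma membrane water channel, had 20 of 26 reads short, and CP29 (AT3G53460), a chloroplast RNA-binding protein, had 16 of 21, of which 12 were of 5 A. LHB1B1 (AT2G34430), an antenna protein of photosystem II, had 17 of 23, HSC70-1 (AT5G02500), a cytosolic chaperone, 18 of 26, and CLA1 (AT4G15560), the first enzyme of the plastid isoprenoid pathway, 24 of 35. The other 4 were AT3G11510 (ribosomal protein S11 family, 25 of 37), GSTU19 (AT1G78380, a glutathione transferase, 17 of 26), SAC52 (AT1G14320, ribosomal protein L16p/L10e family, 37 of 59) and AT3G09200 (ribosomal protein L10 family, 46 of 74). The last 2 had the highest short shares among loci with at least 50 reads in that library, 62.7% and 62.2%. ASN2, SUR1, CP29, LHB1B1, HSC70-1, CLA1, AT3G11510 and GSTU19 are named after their values were seen.

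In urt1 xrn4 the 5 short-leaning loci included AT1G13360 again, with 50 of 53 reads short (94.3%; 84.3 to 98.8). These were 6 of 4 A, 13 of 5 A, 24 of 6 A, 4 of 7 A, 2 of 8 A and 1 of 9 A, against 3 long reads, all of 20 A. SAC52 had 27 of 39 (69.2%) and FBA1 (AT2G21330), a plastid aldolase of the Calvin cycle, 27 of 42 (64.3%). Also called, and named after their values were seen, were AT2G20670, annotated as a putative sugar phosphate exchanger, with 18 of 21, and CXE18 (AT5G23530), a carboxylesterase, with 22 of 22. All 22 CXE18 reads had 4 A, 1 single end repeated, so 1 molecule copied and several molecules cannot be told apart. In xrn4 the short-leaning loci were FBA2 (AT4G38970), another plastid aldolase, with 19 of 23 (82.6%; 61.2 to 95.05), and AT5G56710 (ribosomal protein L31e family) with 21 of 33 (63.6%; 45.1 to 79.6), of which 14 were of 5 A. In WT they were AT3G09200 with 14 of 22 (63.6%; 40.7 to 82.8) and LHCB6 (AT1G15820), a minor antenna protein of photosystem II, with 14 of 27 (51.9%; 31.9 to 71.3), of which 10 were of 5 A.

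Several long-leaning loci had no short read at all. FLA2 (AT4G12730), a fasciclin-like arabinogalactan protein of the cell surface, had 0 of 26 in urt1, which allows a share of up to 11.5% by the limit of 3 reads (exact interval up to 13.2%), 0 of 5 in xrn4, 0 of 22 in urt1 xrn4 and 0 of 6 in WT. Its long reads were spread over 10 lengths in urt1 and 11 in urt1 xrn4. Also without a short read in urt1 were XTH7 (AT4G37800), a xyloglucan-modifying cell wall enzyme (0 of 23), AT1G01100 (acidic ribosomal protein family, 0 of 31), HMGB3 (AT1G20696), a high mobility group chromatin protein (0 of 22), AT3G18060 (WD-40 repeat family, 0 of 23) and AT4G40040 (histone superfamily, 0 of 29). In urt1 xrn4 these were GRP-3 (AT2G05520), a glycine-rich protein (0 of 25), SSR16 (AT4G34620), an organellar-type ribosomal protein (0 of 21), and AT5G18380 (annotated to the ribosomal S5 domain 2-like superfamily, 0 of 31). In WT they were LAP2 (AT4G30920), an aminopeptidase (0 of 21), and AT2G45180 of the lipid-transfer family (0 of 20, which allows up to 15% by that limit and 16.8% by the exact interval). Apart from XTH7, AT5G18380, LAP2 and AT2G45180, these loci are named after their values were seen. Of these loci only FLA2, GRP-3 and LAP2 had no short read in any library. AT4G40040 had 12 of 23 reads short in urt1 xrn4 and 0 of 10 in WT. AT3G18060 had 4 of 19 short in WT and 2 of 2 in xrn4, SSR16 had 7 of 26 in urt1, and AT2G45180 had 27 of 61 in urt1. Among loci with at least 50 reads in urt1 the lowest short shares were those of ARFA1E (AT3G62290), a small GTPase of vesicle traffic (7 of 74, 9.46%), LHB1B2 (AT2G34420), an antenna protein (7 of 70, 10%), PSBR (AT1G79040), a photosystem II subunit (9 of 75, 12%), AT5G18380 (7 of 55, 12.7%) and PSAG (AT1G55670), a photosystem I subunit (8 of 61, 13.1%).

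The next question was whether the same loci lean the same way in all 4 libraries. Only 7 loci had 20 reads in each, and 2 of them lay under the library share in all 4 while none lay above in all 4. CAB3 (AT1G29910), an antenna protein of photosystem II, had 26 of 146 reads short in urt1 (17.8%), 14 of 42 in xrn4 (33.3%), 27 of 74 in urt1 xrn4 (36.5%) and 1 of 30 in WT (3.33%). DRT112 (AT1G20340), plastocyanin, the copper protein that carries electrons to photosystem I, had 58 of 193 (30.1%), 3 of 20 (15%), 36 of 86 (41.9%) and 4 of 29 (13.8%) in the same order. CAB3 was called in urt1 and WT and DRT112 in xrn4 alone, so no locus was called in all 4. CAB3 shares near-identical sequence with CAB1 and CAB2, and with the 3 genes summed as 1 locus DRT112 was the 1 locus under the share in all 4 libraries.

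The other 5 were on differing sides. AT5G56710 was called in opposite directions, long-leaning in urt1 (27 of 101, 26.7%), short-leaning in xrn4 (21 of 33, 63.6%) and long-leaning in WT (1 of 21, 4.76%). In urt1 xrn4 it had 22 of 36 (61.1%) and was not called. Without the most frequent length of each locus its log2 odds ratio in urt1 was 0.42. That setting dropped its 17 reads of 20 A there and lowered the library share of urt1 to 26.3%. FBA2 had 59 of 176 in urt1 (33.5%), 19 of 23 in xrn4 (82.6%, short-leaning), 20 of 48 in urt1 xrn4 (41.7%) and 9 of 38 in WT (23.7%). RCA (AT2G39730), the activase that frees Rubisco of inhibitory sugars, had 24 of 86 in urt1 (27.9%), 19 of 36 in xrn4 (52.8%), 1 of 21 in urt1 xrn4 (4.76%) and 8 of 45 in WT (17.8%). CAB1 (AT1G29930) had 33 of 148 (22.3%) in urt1, 9 of 26 (34.6%) in xrn4, 42 of 69 (60.9%) in urt1 xrn4 and 4 of 25 (16%) in WT. RBCS1A (AT1G67090), a Rubisco small subunit, had 31 of 149 (20.8%), 25 of 60 (41.7%), 15 of 77 (19.48%) and 16 of 53 (30.2%) in the same order. The eighth locus tested in xrn4 was ELP (AT1G12090), an extensin-like protein, with 10 of 22 in urt1 and 6 of 20 in xrn4, called in neither. GAPC2 (AT1G13440), a cytosolic glycolytic dehydrogenase, had 13 of 53 in urt1 (long-leaning) and 10 of 21 in WT (not called). By short share, FBA2, RCA, RBCS1A and AT5G56710 were thus highest in xrn4, AT5G56710 with a near value in urt1 xrn4. RCA and RBCS1A were lowest in urt1 xrn4. Set against the library share, RBCS1A lay under it in xrn4 (43.0%) and above it in WT (28.4%).

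Of the 6 loci with 20 reads in 3 libraries, all of them urt1, urt1 xrn4 and WT, 3 lay under the library share in all 3 and 1 above. Long-leaning in all 3 were AT1G07940, a translation elongation factor of the Tu family, with 22 of 132 reads short in urt1 (16.7%), 7 of 60 in urt1 xrn4 (11.7%) and 4 of 43 in WT (9.3%), and CRD1 (AT3G56940), an enzyme of chlorophyll synthesis, with 32 of 148 (21.6%), 4 of 34 (11.8%) and 1 of 23 (4.35%). In xrn4, under the minimum, AT1G07940 had 3 of 13 and CRD1 0 of 2. The third was emb2171 (AT3G04400, ribosomal protein L14p/L23e family), with 19.4%, 43.3% and 20.7% in urt1, urt1 xrn4 and WT. LHCB6 was the 1 locus above in all 3, with 60 of 111 (54.1%), 46 of 79 (58.2%) and 14 of 27 (51.9%), and it had 2 of 8 in xrn4. The short reads of LHCB6 included 22 of 5 A in urt1, 21 in urt1 xrn4 and 10 in WT, so the same single length was the most frequent in each.

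The deepest pair, urt1 and urt1 xrn4, shared 45 loci. Both libraries had 28 of them under and 6 above their shares, and 11 lay on differing sides. Long-leaning in both were 13 loci, of 22 so called in urt1 and 20 in urt1 xrn4 (background 39% and 41.1%). These were AT1G07940, CRD1, PSBR, PSAG, AT5G18380, AT1G01100, ARFA1E, FLA2, XTH4 (AT2G06850, a xyloglucan-modifying enzyme), RBCS1A, LHCA1 (AT3G54890, an antenna protein of photosystem I), GER1 (AT1G72610, a germin-like protein) and MT2B (AT5G02380, a metallothionein that binds metal ions). GER1, MT2B and ARFA1E carried 12 of 45, 8 of 53 and 7 of 74 short reads in urt1, and 7 of 47, 11 of 49 and 4 of 40 in urt1 xrn4. Without the most frequent length of each locus, 0 loci were long-leaning in both, 5 were so in urt1 and 0 in urt1 xrn4, and the log2 odds ratio of LHCA1 was 0.43 in urt1 and 0.89 in urt1 xrn4. That setting takes long reads from a locus whose most frequent length is long. It also lowered the library share to 26.3% in urt1 and 23.9% in urt1 xrn4 and left 27 loci tested in both. Long calls are therefore lost partly by construction, and these counts cannot decide how firm the leans are. Short-leaning in both were AT1G13360 and SAC52, and no locus of the pair was called in opposite directions. GER1, MT2B, FLA2 and AT1G01100 are named after their values were seen. Across the 45 loci the log2 odds ratios of the 2 libraries had Pearson's r of 0.56 and Spearman's rho of 0.49, a description over loci of 1 library each, read in the same lanes. The same measures were 0.58 and 0.46 over 16 loci of urt1 and WT, 0.16 and 0.16 over 13 of urt1 xrn4 and WT, and 0.08 and -0.02 over 8 of urt1 and xrn4.

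**Figure D4:**
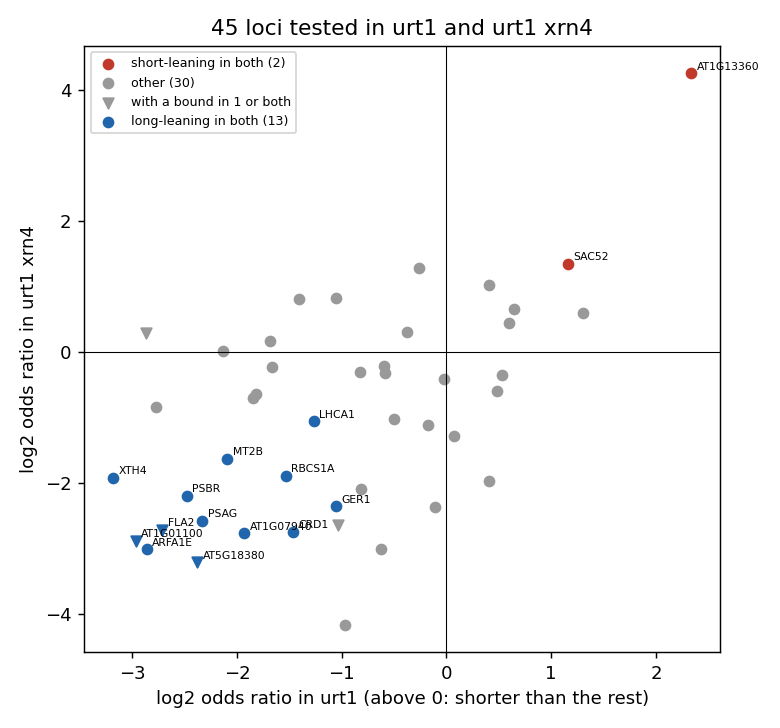
Log2 odds ratio of short to long reads, locus against the rest of its library, in urt1 (horizontal axis) and urt1 xrn4 (vertical axis) for the 45 loci with at least 20 reads in both; triangles hold a bound from 3 reads where a side had 0. The 13 loci long-leaning in both lie at the lower left and AT1G13360 and SAC52 at the upper right.

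Loci called in urt1 were also read in the other libraries without a minimum, where the call had used none of their reads. The 12 short-leaning loci had a pooled short share of 60.8% in xrn4 (31 of 51 reads; 46.1 to 74.2), 66.5% in urt1 xrn4 (127 of 191; 59.3 to 73.1) and 42.9% in WT (24 of 56; 29.7 to 56.8). The 41 long-leaning loci had 31.9% in xrn4 (112 of 351; 27.1 to 37.1), 28.1% in urt1 xrn4 (367 of 1307; 25.7 to 30.6) and 14.0% in WT (67 of 480; 11.0 to 17.4). AT3G09200 weighed heavily among the short-leaning loci: without it they had 47.4% in xrn4 (18 of 38), 67.4% in urt1 xrn4 (116 of 172) and 29.4% in WT (10 of 34), beside library shares of 43.0%, 47.1% and 28.4%. Of the long-leaning loci with reads there, 26 of 34 lay under the library share in xrn4, 34 of 41 in urt1 xrn4 and 31 of 36 in WT, beside 23 of 43, 34 of 51 and 32 of 46 of the loci not called in urt1. Of the short-leaning loci 4 of 8, 9 of 12 and 5 of 10 lay above. The 3 that lay under the share in urt1 xrn4 were LHB1B1 (0 of 18), GSTU19 (2 of 13) and SUR1 (0 of 3). Often-read loci of urt1 lay under the share in urt1 xrn4 and WT even where not called. The 52 loci not called in urt1 had 38.4% in urt1 xrn4 (35.5 to 41.3) and 20.7% in WT (17.2 to 24.7). In xrn4 they had 42.5% (36.9 to 48.2), an interval that included the library share. AT3G09200, short-leaning in urt1 and WT, had 13 of 13 reads short in xrn4 and 11 of 19 in urt1 xrn4. PSAG had 0 of 7 short in xrn4 and 0 of 13 in WT, and LHCA1 3 of 8 and 1 of 18.

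Protein families were compared next, over 24 lists that held 80 of the 117 loci. Each list was summed over all of its reads in a library, including loci under the minimum. Of the 7 families with at least 20 reads in all 4 libraries, 5 lay under the library share in each: cytosolic ribosomal proteins, plastid ribosomal proteins, translation elongation factors, the light-harvesting antenna, and photosystem I with its electron carriers. None of the 7 lay above in all 4. Whole intervals under the share were found for 15 lists in urt1, 6 in xrn4, 13 in urt1 xrn4 and 5 in WT. The interval of the antenna in urt1 xrn4, of cytosolic ribosomal proteins in xrn4 and of elongation factors in xrn4 and WT included the share. The tested antenna loci had a median log2 odds ratio of -0.14 in urt1 and -0.39 in urt1 xrn4. Photosystem I had -0.73 and -1.05, and all tested loci -0.92 and -0.77. The direction of the antenna and photosystem I did not hold in every setting. Without the most frequent length of each locus, which also drops every locus with 1 length and so lowers the library share, the antenna lay 8.93 points above the library in urt1, 8.87 in xrn4 and 4.92 in WT, and photosystem I lay above by 4.66 points in urt1, by 1.02 in xrn4 and by 2.62 in urt1 xrn4. Cytosolic ribosomal proteins then lay 0.78 points above in urt1 xrn4. Reads of loci in no list lay above, with 50.8% against 43.0% for the library in urt1, 46.2% against 43.0% in xrn4, 54.1% against 47.1% in urt1 xrn4 and 33.95% against 28.4% in WT. Of the listed loci with a read, 75 of 411 reached 20 reads in urt1, 7 of 177 in xrn4, 41 of 361 in urt1 xrn4 and 15 of 221 in WT. Among loci with at least 20 reads, those in a list had 30.8% (75 loci; 29.4 to 32.2) and those in none 32.1% (30 loci; 29.0 to 35.3) in urt1, against 33.2% (41 loci; 31.0 to 35.4) and 48.1% (15 loci; 43.2 to 53.0) in urt1 xrn4. The urt1 xrn4 value of the unlisted loci rested largely on CXE18 and AT1G13360, and without them it was 37.7% (130 of 345).

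**Figure D5:**
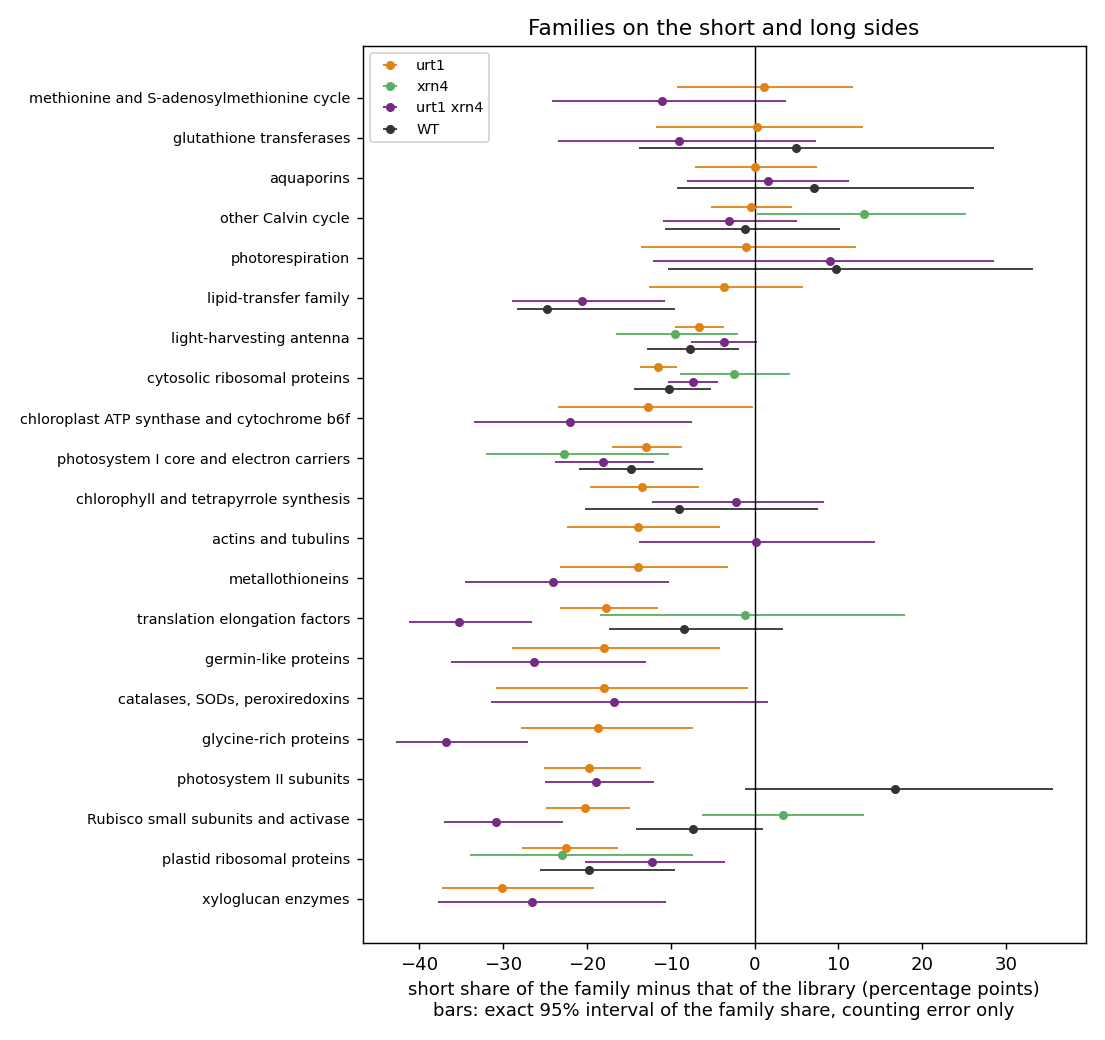
Short share of each family minus that of its library, in percentage points (horizontal axis), for families with at least 20 reads in 2 libraries or more (vertical axis), coloured by library, with exact 95% intervals of the family share as bars. The plastid ribosomal proteins and photosystem I lie left of 0 with their whole interval in all 4 libraries.

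Photosynthetic families did not lean alike. Photosystem I subunits with plastocyanin and ferredoxin made up 2.32% of short and 4.08% of long reads in urt1, 1.28% and 3.80% in xrn4, 1.71% and 3.73% in urt1 xrn4, and 1.56% and 3.91% in WT. Their short share was 30.04% in urt1 (26.0 to 34.4), 20.3% in xrn4 (11.0 to 32.8), 28.9% in urt1 xrn4 (23.3 to 35.1) and 13.7% in WT (7.49 to 22.3), under the library share with the whole interval in each. Of their 6 loci tested in urt1, PSAG was long-leaning and none short-leaning (background 39% and 11.4%), and in urt1 xrn4 PSAG and PSAK (AT1G30380, 2 of 20 short) were 2 of 5 (background 41.1%). PSAK had 22 of 67 short in urt1. The antenna, which gathers light for both photosystems, was closer to its library, with 36.4% in urt1 (33.5 to 39.4), 33.5% in xrn4 (26.5 to 41.1), 43.4% in urt1 xrn4 (39.5 to 47.3) and 20.7% in WT (15.6 to 26.6). It was also split: of 14 loci tested in urt1, 5 were long-leaning (35.7%, near the background of 39%) and 1 short-leaning, with LHB1B2 at 10% and LHB1B1 at 73.9%. Under the minimum elsewhere, LHB1B1 had 0 of 18 reads short in urt1 xrn4 and 1 of 6 in WT, so its short lean was seen in urt1 alone. LHCB2.2 (AT2G05070) had 58 of 113 in urt1 (51.3%), 26 of 70 in urt1 xrn4 (37.1%) and 5 of 31 in WT (16.1%), and LHCB5 (AT4G10340) had 33 of 62 in urt1 and 12 of 22 in urt1 xrn4. Photosystem II subunits had 23.3% in urt1 (17.9 to 29.5) and 28.2% in urt1 xrn4 (22.0 to 35.1), with PSBR long-leaning in both. Without PSBR the subunits had 29.2% in urt1 (42 of 144) and 47.3% in urt1 xrn4 (35 of 74; library share 47.1%). PSBO1 (AT5G66570), of the oxygen-evolving complex, had 12 of 43 in urt1. Under the minimum elsewhere, it had 13 of 16 short in urt1 xrn4, 6 of 6 in WT and 2 of 2 in xrn4. WT had 14 of 31 reads of these subunits short (45.2%; 27.3 to 64.0).

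Carbon fixation genes were divided as well. Rubisco small subunits with the activase had 22.8% in urt1 (18.1 to 28.1) and 16.2% in urt1 xrn4 (10.1 to 24.2), both under the library share, against 46.4% in xrn4 (36.8 to 56.1) and 21.1% in WT (14.3 to 29.4), whose intervals included it. RBCS3B (AT5G38410), another small subunit, had 10 of 38 in urt1 and 2 of 23 in WT. The other Calvin cycle genes lay at the library share in urt1 (42.6% of 425 reads; 37.8 to 47.4), urt1 xrn4 (44.0%; 36.2 to 52.1) and WT (27.3%; 17.7 to 38.6) and above it in xrn4 (56.1%; 43.3 to 68.3). Without FBA2, the other loci of the list had 41.9% of 43 reads short in xrn4. CP12-1 (AT2G47400), a small protein that binds Calvin cycle enzymes in the dark, had 35 of 85 in urt1 (41.2%) and 4 of 27 in urt1 xrn4 (14.8%), long-leaning there.

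Translation genes made up a larger part of the long side than of the short side in each library. Cytosolic ribosomal proteins were 9.27% of short and 15.2% of long reads in urt1, 9.85% and 10.9% in xrn4, 10.3% and 13.8% in urt1 xrn4, and 6.37% and 11.3% in WT. Their short share was 31.5% in urt1 (29.4 to 33.7), 40.5% in xrn4 (34.1 to 47.2), 39.7% in urt1 xrn4 (36.8 to 42.7) and 18.3% in WT (14.0 to 23.2), with the xrn4 interval including the library share. Loci under the minimum of 20 reads, where reads in no list were above the library share, also lay under it here: 34.6% of 829 reads in urt1, 36.6% of 194 in xrn4, 39.6% of 679 in urt1 xrn4 and 14.7% of 218 in WT. In urt1, 12 of 23 loci tested were long-leaning (52.2%, background 39%) and 3 short-leaning, and their median log2 odds ratio was -1.44 beside -0.92 for all 105 loci. In urt1 xrn4 3 of 10 were long-leaning (30%, background 41.1%) and 1 short-leaning, with a median of -0.22 beside -0.77. In urt1 the tested loci of the family thus ran from 0 of 31 short reads in AT1G01100 to 67.6% in AT3G11510 (25 of 37). In urt1 xrn4 they ran from 0 of 31 in AT5G18380 to 69.2% in SAC52. AT1G01100 had 4 of 37 in urt1 xrn4, and SAC52 had 62.7% in urt1. AT3G49910, of the SH3-like translation protein family, had 9 of 61 in urt1 (long-leaning) and 35 of 74 in urt1 xrn4 (not called). Nuclear-encoded plastid ribosomal proteins had 20.6% in urt1 (15.3 to 26.7), 20% in xrn4 (9.05 to 35.6), 34.8% in urt1 xrn4 (26.8 to 43.5) and 8.62% in WT (2.86 to 18.98), the whole interval under the library share in each. Among their loci, AT1G64510 (3 of 37 in urt1) and PSRP6 (AT5G17870, 3 of 27 in urt1 xrn4) were long-leaning. Elongation factors had 25.3% in urt1 (19.8 to 31.5), 41.9% in xrn4 (24.5 to 60.9), 11.8% in urt1 xrn4 (5.79 to 20.6) and 20% in WT (11.1 to 31.8). AT1G07940 and its near-identical paralogue AT5G60390 (5 of 43 in urt1) carried most of those reads and may share them, while LOS1 (AT1G56070), elongation factor 2, had 12 of 24 in urt1.

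Of the smaller families some lay under the library share in the 2 deeper libraries and others did not. Xyloglucan-modifying enzymes had 12.9% in urt1 (8 of 62 reads; 5.74 to 23.9) and 20.5% in urt1 xrn4 (8 of 39; 9.30 to 36.5), with XTH4 at 2 of 26 and 4 of 21. Glycine-rich proteins had 24.3% and 10.3%, metallothioneins 29.1% and 23.1%, and germin-like proteins 25% and 20.8% in urt1 and urt1 xrn4, each with an interval under the library share. Single loci carried much of these values: without MT2B the metallothioneins had 17 of 33 short in urt1 (51.5%) and 1 of 3 in urt1 xrn4, and without GER1 the germin-like proteins had 1 of 7 and 4 of 6. Without the most frequent length of each locus, germin-like proteins lay 5.43 points above the library in urt1, and in urt1 xrn4 metallothioneins lay 2.32 and xyloglucan enzymes 4.70 points above. Intervals that included the library share were those of the HSP70 and HSP90 chaperones (57.9% in urt1 and 66.7% in urt1 xrn4), glutathione transferases (43.3% and 38.1%), photorespiration (41.9% and 56%) and the methionine cycle (44.1% and 36%). The lipid-transfer family had 26.5% in urt1 xrn4 (18.1 to 36.4) and 1 of 27 reads short in WT, but 39.3% in urt1 (30.4 to 48.8). AT2G45180 had 27 of 61 short in urt1, 15 of 56 in urt1 xrn4 and 0 of 20 in WT, and the rest of the family 19 of 56 (33.9%), 11 of 42 (26.2%) and 1 of 7 in the same order. Aquaporins lay at the library share in urt1 (43.1%), urt1 xrn4 (48.6%) and WT (35.5%, 11 of 31), with PIP2A on the short side and the tonoplast channel TIP2 (AT3G26520) at 21 of 70 in urt1 and 8 of 46 in urt1 xrn4. DELTA-TIP (AT3G16240), another tonoplast channel, had 20 of 43 in urt1. No listed family had its whole interval above the library share in urt1, urt1 xrn4 or WT; in xrn4 the other Calvin cycle genes did (at -6.49 points with tails of any extension), as did photorespiration (11 of 11 reads) and the HSP70 and HSP90 chaperones (5 of 5).

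Measures that did not enter the choice of sides were then set beside the calls. Unmodified tails of 10 to 19 A, between the sides, averaged 14.6 A in the median short-leaning locus of urt1 (range 12 to 15.9; 12 loci), 15.5 A in the median long-leaning locus (14.2 to 17.0; 41 loci) and 15.1 A in the loci not called (52 loci). In urt1 xrn4 the medians were 14.7 A (3 loci with at least 5 such reads), 15.8 A (23 loci) and 15.3 A (27 loci). In both libraries the ranges overlapped. WT did not show this pattern. Its medians were 15.90 A (2 loci), 15.87 A (7 loci) and 15.69 A (8 loci) in the same order. In xrn4 they were 15.85 A (2 loci), 16.19 A (1 locus) and 15.61 A (5 loci). Tails carrying U had shorter A tracts at short-leaning than at long-leaning loci of urt1 and urt1 xrn4, over loci with at least 3 uridylated reads. In urt1 the medians were 8.67 A in short-leaning (9 loci, 5.50 to 17) and 12.8 A in long-leaning loci (28 loci, 9 to 20.3). Uncalled loci had 11 A there (37 loci). In urt1 xrn4 the medians were 11.6 A (3 loci), 13.8 A (16 loci) and 11.5 A (21 loci), so short-leaning and uncalled loci were alike. The uridylated share of all reads had medians of 5.58% in short-leaning, 3.45% in long-leaning and 5.85% in uncalled loci of urt1, 7.14%, 4.89% and 8.29% in those of urt1 xrn4, and 13.2% (2 loci), 14% (7 loci) and 15.6% (8 loci) in those of WT, with wide overlap. ASN2 had 10 of 50 reads uridylated in urt1 at a mean of 5.80 A.

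Gene length differed between the calls in urt1 and urt1 xrn4, and less so in WT. Annotated coding length had a median of 914 nt in the short-leaning and 546 nt in the long-leaning loci of urt1 (453 to 2154 and 210 to 1830), and 885 and 441 nt in those of urt1 xrn4. Transcript length had medians of 1527 and 1109 nt in urt1 and 1481 and 1022 nt in urt1 xrn4. Uncalled loci had median coding lengths of 754.5 nt in urt1 and 661.5 nt in urt1 xrn4. In WT the coding medians were 870 nt in short-leaning (2 loci), 804 nt in long-leaning (7 loci) and 801 nt in uncalled loci (8 loci). The WT transcript medians were 1332, 1223 and 1307.5 nt. The longest genome-encoded run of A in the last 300 nt of the annotated transcript was 4 nt in the median short-leaning and 4 nt in the median long-leaning locus of urt1, and 4 and 5 nt in urt1 xrn4. Numbers of lengths are not comparable between the calls, since the short side spans 6 lengths and the long side 11 and short-leaning loci had fewer reads. Among the short-leaning loci of urt1 xrn4, CXE18 (22 of 22 at 4 A), AT2G20670 (10 of 21 at 4 A) and AT1G13360 (24 of 53 at 6 A) had the largest shares of reads at 1 length. The part that repeated copies have in the short calls was not tested.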

How the data were processed

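The authors deposited 1 table with 1 line per read; per the file headers its columns hold the library, the A-tract size, the modification, a category and the locus. The deposited lengths are in nucleotides and not normalised. The submitters' processing notes name CASAVA 1.8.2, TopHat2 2.0.9, Bowtie2, bedtools 2.17.5 and build TAIR10; the measuring and filtering of tails are not given in those notes or the labels. The double mutant appears by initials and was matched because the other 3 names equal the labels.

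Totals were 43391 reads in urt1, 9797 in xrn4, 26300 in urt1 xrn4 and 10304 in WT. Short shares have exact Clopper-Pearson 95% intervals; a count of 0 was set to 3 reads for odds ratios and for the limit it allows, giving a bound. No p-value was computed, since reads of 1 library are not replicates. Alternatives were distinct ends, other sides, minimums, odds ratios and baselines, any extension, thinning, single lanes, summed CAB genes and sums without single loci. The calls were tested on simulated reads with known leans. The loci and lists were chosen with earlier results of these data known. Loci named are, per library, the 5 highest and 5 lowest shares (at least 50 reads, or 20 where fewer than 10 loci had 50), loci called alike in 3 libraries or in opposite directions, and the 3 best-read loci of each family; exceptions are marked, and 1 named locus is not reported here. Names, lengths and A runs came from RefSeq's TAIR10.1 annotation, with 8307 of 8346 loci matched; no coordinates are given because the build names differ. Near-identical genes can share reads. Python 3.11.15, numpy 2.4.6, pandas 2.3.3, scipy 1.17.1 and matplotlib 3.10.9 were used.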

Additional observations from a re-analysis of the deposited data

Results flagged for a closer look

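AT5G56710, of the ribosomal protein L31e family, leaned in opposite directions between libraries: 63.6% of its short and long unmodified reads were short in xrn4 (21 of 33), against 26.7% in urt1 (27 of 101) and 4.76% in WT (1 of 21). The difference was not tested, as each genotype had 1 library. In xrn4, 14 of the 21 short reads had 5 A, and with tails of any extension its log2 odds ratio there was -0.20 in place of 1.23.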

How the results depend on the processing

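No paired analysis was possible because each genotype had 1 library. Short shares, in the order urt1, xrn4, urt1 xrn4 and WT, were 35.6, 39.0, 34.8 and 27.7% over distinct ends, 26.3, 22.7, 23.9 and 11.4% without the most frequent length of each locus (which drops every locus with 1 length), 38.02, 35.8, 40.3 and 23.5% with a short side of 5 to 9 A, 50.01, 53.2, 54.5 and 36.1% with a long side of 20 to 25 A, and 48.98, 63.3, 56.2 and 42.9% with any extension. WT was lowest in each, but the order of the mutants changed. The highest was xrn4 over distinct ends and with any extension, urt1 without the most frequent length, and urt1 xrn4 with the other sides. Distinct ends left no locus with 20 reads.

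Counts of loci that moved were as follows. Without the most frequent length, 5 loci were long-leaning in urt1, 0 in xrn4, urt1 xrn4 and WT, and 0 in both urt1 and urt1 xrn4; short-leaning were 1 in xrn4, 9 in urt1 xrn4 and 1 in WT, and 0 lay under the share in all 4. With 5 to 9 A, and with 20 to 25 A, xrn4 had 1 short-leaning and 0 long-leaning loci and 1 locus lay under the share in all 4; 5 to 9 A gave 1 locus of opposite calls in urt1 and urt1 xrn4, and 20 to 25 A gave 3 long-leaning loci in WT. With any extension, 5 were long-leaning in xrn4, 11 short-leaning in urt1 xrn4 and 1 in WT, 6 lay under and 1 above in all 4, and 1 had opposite calls. At a minimum of 10 reads, short-leaning and long-leaning loci were 31 and 79 in urt1, 9 and 8 in xrn4, and 21 and 49 in urt1 xrn4; 8 lay under and 2 above in all 4, and 23 were long-leaning, 5 short-leaning and 2 opposite in urt1 and urt1 xrn4. At 50 reads these were 2 and 17 in urt1, 0 and 0 in xrn4, 1 and 5 in urt1 xrn4, and 0 and 0 in WT, with 0 under in all 4, and 4 long-leaning and 0 short-leaning in both. Against the median locus they were 27 and 19 in urt1 and 4 and 0 in WT, with 12 short-leaning in urt1 xrn4, 0 under and 1 above in all 4, and 7 long-leaning and 5 short-leaning in both. An odds ratio of 1.5 gave 1 locus of opposite calls. A ratio of 3 gave 6, 1, 3 and 1 short-leaning loci in urt1, xrn4, urt1 xrn4 and WT, and 1 in both urt1 and urt1 xrn4. Thinned to the shallowest library, short-leaning and long-leaning loci were 0 and 5 in urt1, 0 and 1 in urt1 xrn4, and 1 and 2 in WT, with 0 and 0 in both urt1 and urt1 xrn4, and both of the 2 loci tested in all 4 lay under the share.

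Chosen after seeing the data were single lanes, the sum of CAB1, CAB2 and CAB3, and sums without 1 or 2 loci. Lane 1 gave 0 and 20 in urt1, 0 and 0 in xrn4, 1 and 6 in urt1 xrn4, and 0 and 1 in WT. Lane 2 gave 2 and 20, 0 and 0, 1 and 10, and 0 and 0. The CAB sum left 1 locus under the share in all 4. Fewer reads per locus in these settings leave wider intervals.

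Of 320 family values recomputed, 261 kept their direction; 15 whose interval had excluded the library share turned, and the others that turned had an interval that included it. Without the most frequent length, these families lay above the library (points): in urt1 the antenna 8.93, photosystem I 4.66, ATP synthase and cytochrome b6f 3.72, Rubisco 0.44 and germin-like proteins 5.43; in xrn4 the antenna 8.87 and photosystem I 1.02; in urt1 xrn4 photosystem I 2.62, ATP synthase and cytochrome b6f 0.37, cytosolic ribosomal proteins 0.78, the lipid-transfer family 6.13, metallothioneins 2.32 and xyloglucan enzymes 4.70; in WT the antenna 4.92. The log2 odds ratio turned to 0.19 for GAPC2, 0.43 for LHCA1 and 0.42 for AT5G56710 in urt1, and to 1.01 for AT2G45180 and 0.89 for LHCA1 in urt1 xrn4. With any extension, the other Calvin cycle genes in xrn4 stood at -6.49 points and AT5G56710 in xrn4 at -0.20. Sums that turned without 1 locus were the metallothioneins in urt1 (51.5% without MT2B), the germin-like proteins in urt1 xrn4 (66.7% without GER1) and photosystem II in urt1 xrn4 (47.3% without PSBR). The cause was not tested.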
